A study of Bos taurus with 8 samples.

Results

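The genes described here are 10 immediate early response genes, FOS, JUN, JUNB, EGR1, ATF3, DUSP1, ZFP36, BTG2, IER2 and IER3, chosen by symbol from a list of genes known for this response. They were chosen with earlier results of these data known, so shares set against all named genes describe them and test nothing. The array carried 12 probes for them among 43794 probes in all, and they were 10 of the 15229 genes that the array annotation names. Immediate early genes are transcribed soon after a growth factor, cytokine or stress signal reaches a cell, by transcription factors such as SRF and CREB that are already present, so that no new protein is needed first. Their mRNAs are short lived, and several of their products, including a phosphatase and an mRNA decay factor, switch the response off again. Among the kinase cascades that drive them is the FGF and ERK pathway, which in mouse embryos directs cells of the inner cell mass toward hypoblast. The study cites work in which blocking the kinase MEK of this pathway hindered hypoblast only in part in bovine embryos.

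The study compared the inner cell mass (ICM), the inner cells from which the fetus arises, with the trophectoderm (TE), the outer epithelium that founds the placenta, in bovine blastocysts flushed from superovulated Holstein cows on day 7.5 after insemination. Both tissues came from good expanded blastocysts with no treatment or genetic change, and RNA was pooled over many embryos, so that 4 pools of each tissue were hybridised on 8 two-colour arrays. By the replicate numbers of the labels, each pool pair was hybridised once with the ICM in Cy5 and the TE in Cy3 and once with the dyes exchanged. The methods describe cutting the blastocyst with a blade into a piece of TE and a fragment that held ICM and TE, and lysing the outer cells of the fragment in antiserum and then complement. Only the ICM passed through those incubations, so tissue and handling cannot be told apart in these arrays. The sources used here give the embryos of each cow but do not assign cows to pools, so p-values measure only the spread between pools.

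Every value below is a log2 ratio of ICM-labelled to TE-labelled RNA, averaged over the 2 arrays of a pool pair, or a normalized log2 intensity. A gene was called when its adjusted p, by limma with Benjamini-Hochberg adjustment over 43794 probes, was at or under 0.01. Signal over background was low on these arrays, and the median probe reached 1.17 to 1.41 times the median negative control spot. Between 48.2% and 65.6% of the probes of a channel exceeded a limit set at the mean of 153 negative control spots plus 2 SD. The labels of the channels went against the tissue markers: NANOG, a transcription factor of the epiblast, had a log2 ratio of -3.50 ± 0.21 (SE, n = 4 pool pairs, adjusted p = 0.00317) and was thus lower in the RNA labelled ICM. Of the 10 trophoblast markers, 8 were called higher in the RNA labelled ICM, and of the 8 epiblast markers 5 were called lower there. The direction that the dye labels give is opposite to the direction the study reports, and each direction below is that of the labels. Whether the dye labels or the channels of the deposited arrays were exchanged was not tested, and an exchange on all arrays would turn the sign of every ratio below and leave its size.

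All 10 immediate early genes had a negative log2 ratio on 8 of 8 arrays, against 11.1% of all named genes. Of these 10, BTG2, ATF3, FOS, DUSP1 and ZFP36 were called lower in the RNA labelled ICM, against 1.91% of all named genes, and each of these 5 differed by at least 2-fold. None was called higher, against 3.35% of all named genes, and at an unadjusted p under 0.05 the members counted 10 lower and 0 higher, against 14.4% and 15.6% of all named genes. The median log2 ratio of the 10 was -1.28, and that of all named genes was 0.01. Among the called members, BTG2 ranked 21 and ZFP36 101 from the most negative of 15229 genes. These are bulk samples, in which fewer cells of a type and less RNA per cell cannot be told apart.

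**Figure D1:**
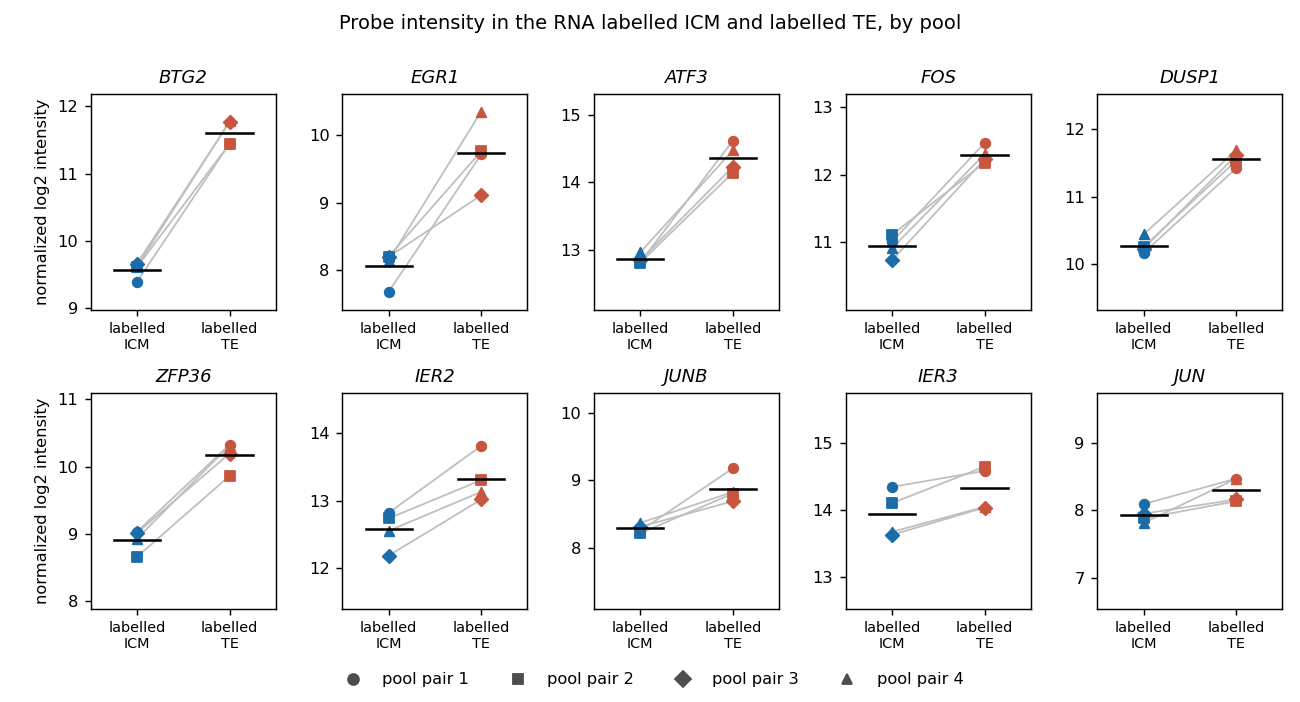
Normalized log2 intensity of the brightest probe of each of the 10 genes (vertical axis, of equal span in every panel) in the RNA labelled ICM (blue) and labelled TE (red), 1 symbol for each pool pair, with grey lines joining the pools of a pair and black bars at the mean of 4 pools. Every line rises to the right, and the 2 groups overlap for IER3 only.

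FOS, JUN, JUNB and ATF3 encode leucine zipper proteins that pair into the AP-1 family of transcription factors. The normalized log2 intensity of FOS, which binds DNA only as the partner of another zipper protein such as a JUN, was 11.01, 11.11, 10.73 and 10.91 in pools 1 to 4 of the RNA labelled ICM. It was 12.47, 12.18, 12.23 and 12.30 in the same pools of the RNA labelled TE. The groups did not overlap, and 1.07 separated the highest pool labelled ICM from the lowest pool labelled TE. The log2 ratio of FOS was -1.36 ± 0.08 (SE, n = 4 pool pairs, adjusted p = 0.00324), which is 2.56-fold more signal in the RNA labelled TE.

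ATF3, a stress-inducible member of the family, had the most negative ratio of the 4 AP-1 genes. Its intensity was 12.81, 12.81, 12.85 and 12.96 in the pools labelled ICM and 14.62, 14.14, 14.23 and 14.48 in those labelled TE, with 1.18 between the groups. The log2 ratio was -1.51 ± 0.09 (SE, n = 4 pool pairs, adjusted p = 0.00303), a 2.84-fold difference. ATF3 was bright on every array, with a median raw signal 36.3 times the background limit in the channels labelled ICM and 139 times in those labelled TE.

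JUN and JUNB, the basic partners of FOS, were dim, and neither was called. JUNB had intensities of 8.25, 8.21, 8.31 and 8.37 in the pools labelled ICM and of 9.17, 8.80, 8.69 and 8.82 in those labelled TE. The groups of JUNB lay 0.32 apart, with TE pool 1 above the rest, and its log2 ratio was -0.59 ± 0.10 (SE, n = 4 pool pairs, adjusted p = 0.0310). JUN had intensities of 8.09, 7.88, 7.95 and 7.81 labelled ICM and of 8.47, 8.14, 8.16 and 8.47 labelled TE, groups that lay only 0.04 apart. Its log2 ratio was -0.37 ± 0.08 (SE, n = 4 pool pairs, adjusted p = 0.0631), and its signal exceeded the background limit on 3 of 8 arrays in the channel labelled ICM and on 8 of 8 in the other. In a fit of the 8 arrays with the replicate number as a block, which takes the arrays almost as separate replicates, the adjusted p was 0.00110 for JUNB and 0.0204 for JUN, and with a dye term added it was 0.00469 and 0.0872.

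EGR1 encodes a zinc finger transcription factor that SRF induces after ERK signalling. It was also the member that the study chose for RT-qPCR, and the primers are shown because they were designed to measure it, while the sequences of the array probes were not analysed here. The forward primer had 24 bases with 37.5% G and C and the reverse primer 19 bases with 47.4%, each written 5′ to 3′ and entirely in lower case.
EGR1 forward: gagtatgcaaattaccttcacatc
EGR1 reverse: gccatgtccaagttcttca

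EGR1 had the widest spread between pool pairs of the 10 genes. Its intensity was 7.68, 8.20, 8.19 and 8.14 in the pools labelled ICM and 9.71, 9.76, 9.11 and 10.35 in those labelled TE. The lowest value labelled ICM was in pool 1 and the highest labelled TE in pool 4, and 0.91 separated the groups. The log2 ratio was -2.04, -1.56, -0.91 and -2.21 in pool pairs 1 to 4, a mean of -1.68 ± 0.23 (SE, n = 4, adjusted p = 0.0193), which did not reach the threshold of the call. Part of this spread lay within pair 4, whose 2 arrays gave -1.57 with the ICM in Cy5 and -2.85 with the TE in Cy5. On the latter array the raw signal labelled ICM was 325, at a background limit of 319. EGR1 exceeded the background limit on 5 of 8 arrays in the channel labelled ICM, where its median was 1.02 times the limit, and on 8 of 8 labelled TE, at 4.56 times, so no fold is given for it. With the replicate block, which takes the arrays almost as separate replicates, the adjusted p was 0.000426. With plain background subtraction in place of the normexp correction the log2 ratio was -2.29 (adjusted p = 0.00309).

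DUSP1 and ZFP36 encode proteins that end the response, and their pool pairs agreed more closely than those of any other member. DUSP1, a nuclear phosphatase that inactivates MAP kinases, had intensities of 10.17, 10.25, 10.23 and 10.44 in the pools labelled ICM and of 11.42, 11.53, 11.61 and 11.69 in those labelled TE. All TE values lay at least 0.98 above the ICM values. The log2 ratio of DUSP1 was -1.26, -1.28, -1.38 and -1.25 in the 4 pool pairs, a mean of -1.29 ± 0.03 (SE, n = 4, adjusted p = 0.00127).

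ZFP36, or tristetraprolin, binds AU-rich elements of mRNAs and speeds their decay. Its intensity was 9.03, 8.66, 9.02 and 8.93 in the pools labelled ICM and 10.33, 9.86, 10.19 and 10.31 in those labelled TE. Pool 2 was the lowest of both groups, and 0.83 lay between them. The log2 ratio was -1.26 ± 0.04 (SE, n = 4 pool pairs, adjusted p = 0.00147), 2.40-fold more signal in the RNA labelled TE.

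BTG2, an antiproliferative protein that brings the CCR4-NOT deadenylase to mRNAs, had the most negative ratio of the 5 called genes. Its intensity was 9.40, 9.61, 9.67 and 9.62 in the pools labelled ICM and 11.45, 11.44, 11.77 and 11.77 in those labelled TE. The groups were 1.78 apart. The log2 ratio was -2.05, -1.83, -2.10 and -2.16 in the 4 pool pairs, with a mean of -2.03 ± 0.06 (SE, n = 4, adjusted p = 0.00127), or 4.10-fold.

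IER2 and IER3 are named for this response. IER2, a small nuclear protein, had intensities of 12.82, 12.74, 12.19 and 12.55 in the pools labelled ICM and of 13.81, 13.30, 13.02 and 13.13 in those labelled TE, with 0.20 between the groups. The log2 ratio of IER2 was -0.74 ± 0.09 (SE, n = 4 pool pairs, adjusted p = 0.0123). Its adjusted p was 5.13e-05 with the replicate block, which takes the arrays almost as separate replicates. IER3, which acts in cell survival under stress, was the one member whose groups overlapped.

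IER3 had intensities of 14.34, 14.10, 13.63 and 13.67 in the pools labelled ICM and of 14.58, 14.64, 14.03 and 14.05 in those labelled TE. Pools 1 and 2 were higher than pools 3 and 4 under both labels, and within each of the 4 pairs the RNA labelled ICM was lower. The log2 ratio of IER3 was -0.24, -0.54, -0.40 and -0.37 in the pool pairs, a mean of -0.39 ± 0.05 (SE, n = 4, adjusted p = 0.0188). Its adjusted p was 0.000548 with the replicate block, which takes the arrays almost as separate replicates. IER3 was far from the detection limit, with median signals 84.9 and 131 times the limit in the channels labelled ICM and TE.

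Across the members, 9 of 10 had groups that did not overlap with the RNA labelled ICM below, against 8.71% of all named genes. At an adjusted p at or under 0.05 all but JUN passed, 9 of 10 against 6.84% of all named genes. With the replicate block, which takes the arrays almost as separate replicates, 9 of 10 passed at 0.01, again all but JUN, against 7.98%. The SD over pools was larger in the RNA labelled TE for 7 of 10 members, with a median SD of 0.21 labelled TE and 0.14 labelled ICM.

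By the main values the ratios ran from BTG2 through EGR1, ATF3, FOS, DUSP1, ZFP36, IER2, JUNB and IER3 to JUN. The places of EGR1, JUN, JUNB and ZFP36 in this order are not settled. The median signal labelled ICM was 1.02 times the background limit for EGR1 and 0.935 times for JUN. With plain subtraction EGR1 (-2.29) passed BTG2 (-2.19) and JUN (-0.72) passed IER3 (-0.36). JUNB (-0.87) then passed IER2 (-0.74), and ZFP36 (-1.49) passed FOS (-1.40) and DUSP1 (-1.37). In the deposited log ratios EGR1 (-2.35) passed BTG2 (-2.28) and JUN (-0.81) passed IER3 (-0.35). There JUNB (-1.01) passed IER2 (-0.74), and ZFP36 (-1.553) passed ATF3 (-1.543). Among the called members, BTG2 was more negative than ATF3 in 4 of 4 pool pairs, by -0.53 with an SD of 0.21 over pool pairs. ATF3 differed from FOS by -0.15 with an SD of 0.20, FOS from DUSP1 by -0.06 with an SD of 0.19, and DUSP1 from ZFP36 by -0.03 with an SD of 0.15, none beyond its spread. ZFP36 was more negative than IER2 in 4 of 4 pool pairs, by -0.52 with an SD of 0.24. With 4 pairs an exact two-sided permutation of signs cannot give a p below 0.125, so these differences are given as values.

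**Figure D2:**
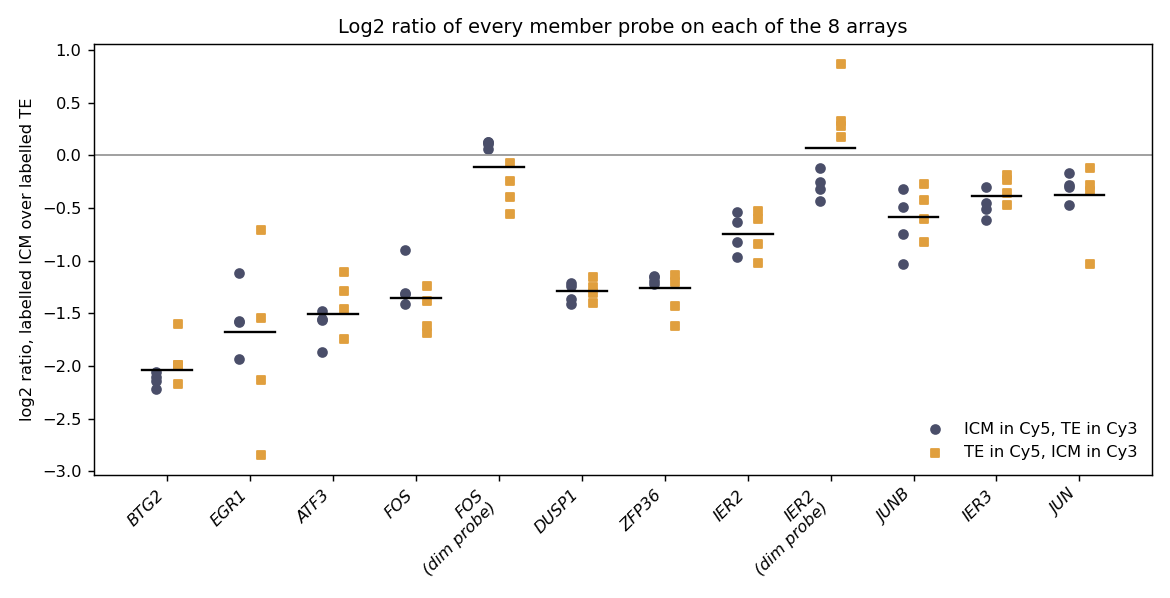
Log2 ratio of ICM-labelled to TE-labelled RNA for the 12 probes of the 10 genes on each of 8 arrays (points, coloured by dye orientation), with black bars at the mean of 4 pool pairs. The brightest probe of each gene is below 0 on every array, and the 2 dim probes of FOS and IER2 change sign with the dyes.

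The dye orientation changed none of these directions. BTG2 had a mean log2 ratio of -2.13 on the 4 arrays with the ICM in Cy5 and of -1.94 on the 4 with the TE in Cy5. FOS had -1.23 and -1.48, EGR1 -1.55 and -1.81, and JUN -0.30 and -0.44 on the same arrays. The deposited arrays of 1 orientation also carry 1 number in their names, so dye and whatever that number marks cannot be told apart.

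FOS and IER2 each had a second probe, and those probes gave other values. The second FOS probe had a log2 ratio of -0.11 ± 0.05 (SE, n = 4 pool pairs, adjusted p = 0.340), with a mean of 0.11 on the arrays with the ICM in Cy5 and of -0.32 with the TE in Cy5. The second IER2 probe had 0.07 ± 0.09 (SE, n = 4 pool pairs, adjusted p = 0.747), with a mean of -0.28 and then 0.41 on the same arrays. Both were dim, at 1.16 to 1.38 times the background limit, whereas the probes that represent the genes were at 10.6 and 31.3 times it for FOS and at 33.7 and 55.0 times it for IER2 in the channels labelled ICM and TE. The values of FOS and IER2 above therefore rest on 1 of 2 probes each.

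The pool pairs differed little in the members as a whole. The median log2 ratio of the 10 was -1.27, -1.14, -1.05 and -1.31 in pool pairs 1 to 4, while that of all named genes lay between -0.00 and 0.01. Pair 4 held the most negative value for 4 members, pair 1 for 3, pair 3 for 2 and pair 2 for 1. Of 15175 named genes, pair 4 held it for 5325, pair 1 for 3771, pair 3 for 3074 and pair 2 for 3005. In pair 4 the array with the ICM in Cy5 gave -0.28 for JUN, -1.57 for EGR1, -1.14 for ZFP36 and -2.14 for BTG2. The array with the TE in Cy5 gave -1.03, -2.85, -1.62 and -2.17.

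Leaving out 1 pool pair kept all 10 ratios negative and lowered the count of calls at 0.01. Without pair 1, 4 members were called lower, FOS having an adjusted p of 0.0102. Without pair 2, 3 or 4 no member was called, and the smallest adjusted p over all 43794 probes was then 0.0103, 0.0140 and 0.0123. At 0.05, 8, 7, 6 and 6 members passed without pair 1, 2, 3 and 4, against 6.21%, 3.91%, 2.93% and 3.10% of all named genes, and BTG2, ATF3, FOS, DUSP1 and ZFP36 passed each time.

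**Figure D3:**
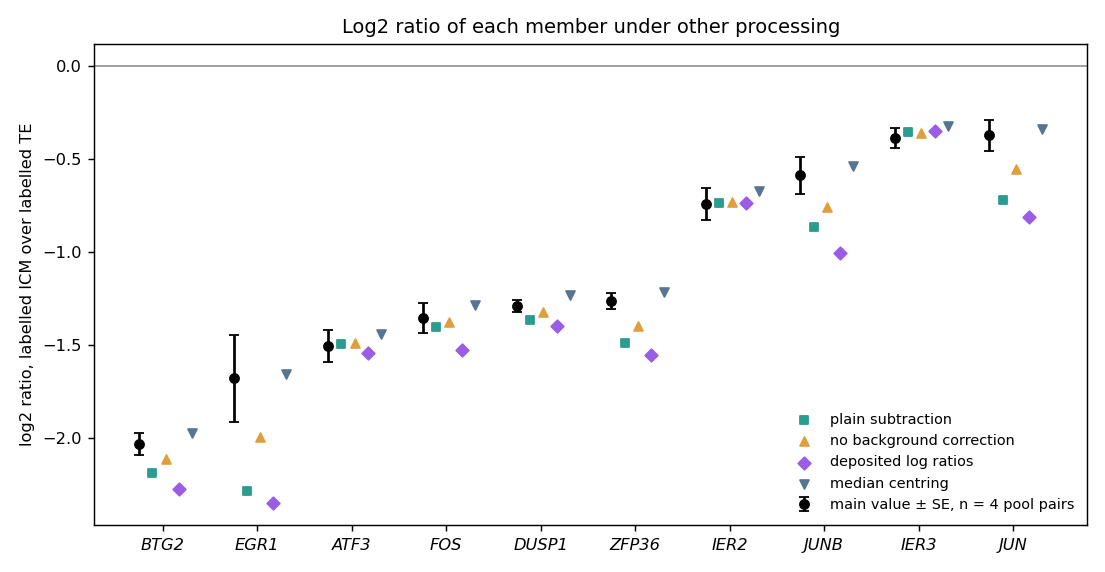
Log2 ratio of ICM-labelled to TE-labelled RNA for each of the 10 genes, as the main value with its SE over 4 pool pairs (black) and under 4 other ways of processing the same arrays (coloured symbols). The bright genes ATF3, IER2 and IER3 move little, while EGR1, JUNB and JUN, which lie near background, move away from 0 under plain subtraction and in the deposited log ratios.

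With plain background subtraction as the one change, JUNB went from -0.59 to -0.87 (adjusted p = 0.00852) and JUN from -0.37 to -0.72 (adjusted p = 0.0138), while the bright ATF3 went from -1.51 to -1.49. The deposited log ratios, which differ from the main values in more than the background step, gave -2.35 for EGR1 (adjusted p = 1.16e-05), -1.01 for JUNB (adjusted p = 0.000451) and -0.81 for JUN (adjusted p = 0.000883). Centring each array on its median in place of loess left all 10 ratios negative, but no member was called, the adjusted p of BTG2 being 0.0434, and 1 probe in all passed at 0.01.

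The other genes of the response were taken from lists by role, which were drawn up with earlier results of these arrays known. Of 37 measured immediate early genes besides the 10, 1 was called lower and 0 higher, against 1.91% and 3.35% of all named genes, and at an unadjusted p under 0.05 there were 22 lower and 0 higher, against 14.4% and 15.6%. Their median log2 ratio was -0.53, and 30 of 37 were negative (81.1%, against 44.5% of all named genes). The gene called was KLF10, a zinc finger repressor induced by TGF-beta, at -0.82 ± 0.05 (SE, n = 4 pool pairs, adjusted p = 0.00398) by 1 of its 2 probes. CITED2, a co-regulator that binds CBP and p300, had -0.83 (adjusted p = 0.0104) and IER5 had -1.24 (adjusted p = 0.0109). TRIB1, a pseudokinase, had -0.53 (adjusted p = 0.0117), and another of its 3 probes had 0.005. At 0.05, 14 of the 37 passed as lower, against 6.84% of all named genes. With the replicate block, which takes the arrays almost as separate replicates, 20 passed as lower at 0.01, against 7.98%.

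The 12 other AP-1 genes, the possible partners of FOS, JUN and ATF3, had values on both sides of 0. Among them 1 was called lower and 0 higher, against 1.91% and 3.35% of all named genes, with 6 lower and 2 higher at an unadjusted p under 0.05, against 14.4% and 15.6%, and the median log2 ratio was -0.18. ATF2, which pairs with JUN, was called at -0.80 ± 0.08 (SE, n = 4 pool pairs, adjusted p = 0.00892) by 1 of its 6 probes. FOSL1, a relative of FOS, had -1.01 (adjusted p = 0.0140), ATF4, the factor of the integrated stress response, -0.66 (adjusted p = 0.0281), and FOSB -1.15 (adjusted p = 0.0884), with another FOSB probe at -0.03. The 2 genes higher at that unadjusted p were MAFK at 0.14 (adjusted p = 0.0784) and JDP2 at 0.26 (adjusted p = 0.171). MAFK was negative on 4 of 8 arrays and JDP2 on 2 of 8.

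**Figure D4:**
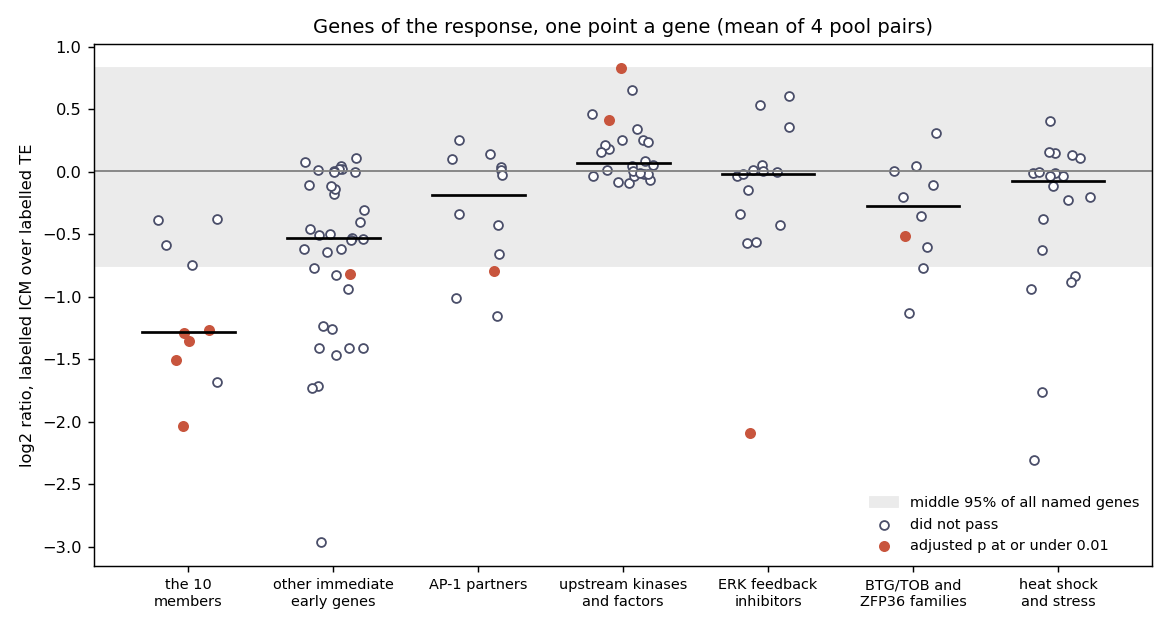
Log2 ratio of ICM-labelled to TE-labelled RNA as the mean of 4 pool pairs, 1 point for each gene in 7 lists, filled where the adjusted p was at or under 0.01, with black bars at the median of a list. The grey band holds the middle 95% of all named genes, from -0.75 to 0.83, and 6 of the 10 members lie below it.

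Of 24 kinases and factors upstream of the response, limma called 0 lower and 2 higher, against 1.91% and 3.35% of all named genes. At an unadjusted p under 0.05 there were 0 lower and 6 higher, against 14.4% and 15.6%, with a median log2 ratio of 0.07. The 2 called were MAPK14, the p38 alpha kinase, at 0.83 ± 0.05 (SE, n = 4 pool pairs, adjusted p = 0.00382), and NRAS, a small GTPase above ERK, at 0.41 ± 0.04 (adjusted p = 0.00774), each by 1 of its 3 probes. The ERK pathway kinases ARAF and MAP2K1 had 0.46 (adjusted p = 0.0517) and 0.66 (adjusted p = 0.0743). SRF and CREB1, which bind immediate early promoters, had -0.08 (adjusted p = 0.555) and -0.09 (adjusted p = 0.593). SRF exceeded the background limit on 0 of 8 arrays under either label, and CREB1 on 4 of 8 labelled ICM and 6 of 8 labelled TE. Their ratios therefore say little about their levels in the 2 tissues.

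DUSP1 belongs to the inhibitors that kinase signalling induces, and 15 inhibitors and targets of ERK feedback were measured beside it. SPRY2, an inhibitor of receptor tyrosine kinase signalling, was the only one called, at -2.09 ± 0.08 (SE, n = 4 pool pairs, adjusted p = 0.00169), 1 of 15 where 1.91% of all named genes were called lower and 3.35% higher. The median log2 ratio of the 15 was -0.02, and at an unadjusted p under 0.05 there were 6 lower and 3 higher, against 14.4% and 15.6%. DUSP6, the cytoplasmic ERK phosphatase, had 0.36 (adjusted p = 0.0613), SPRED1 0.60 (adjusted p = 0.0317), ETV5, a transcription factor downstream of FGF, -0.57 (adjusted p = 0.0616), and SPRY4 -0.56 (adjusted p = 0.0744). Other probes reached 0.00 for SPRED1 and 0.04 for ETV5.

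Relatives and partners of BTG2 and ZFP36 were counted in the same way. Of 10 measured genes of the BTG/TOB and ZFP36 families and of the CCR4-NOT complex they bind, 7 were negative, against 44.5% of all named genes, and the median was -0.28. Of these 10, 1 was called lower and 0 higher, against 1.91% and 3.35%, and 5 were lower and 1 higher at an unadjusted p under 0.05, against 14.4% and 15.6%. ZFP36L2, a decay factor like ZFP36, was the gene called, at -0.52 ± 0.04 (SE, n = 4 pool pairs, adjusted p = 0.00651) by 1 of its 2 probes. BTG1 had -0.60 (adjusted p = 0.0452), BTG3 -0.77 (adjusted p = 0.0713) and TOB1 -1.13 (adjusted p = 0.0979).

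Among 15016 other named genes, the 5 whose log2 ratios over the 8 arrays lay nearest to the mean profile of the 10 were WDR34, IL6ST, ARG2, TBPL1 and RTF1. Their root mean square distances were 0.0722, 0.123, 0.138, 0.151 and 0.157, and their mean log2 ratios -1.09, -1.05, -1.09, -1.03 and -1.11. IL6ST is the signal-transducing receptor of the IL-6 family of cytokines.

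Markers of other cells and of stress were read beside these results. The summed linear intensity of the 10 members ranged from 29787 to 40363 in the pools labelled ICM and from 58104 to 78285 in those labelled TE, and 8 of the 10 exceeded the background limit on all channels. The sum of 8 epiblast markers ranged from 11723 to 14838 and from 32053 to 47182, with 5 of 8 above the limit on all channels. That of 5 hypoblast markers ranged from 4334 to 8771 and from 23315 to 29622, with 3 of 5 above it. These sums moved in the direction of the members. None of the 5 hypoblast markers was called, and their sum rests mostly on the bright HNF4A and PDGFRA. HNF4A had -2.74 (adjusted p = 0.0102) and PDGFRA -1.73 (adjusted p = 0.0174), each by its brightest of 3 probes. GATA4 had -0.21 (adjusted p = 0.0288), FOXA2 -0.53 (adjusted p = 0.232) and SOX17 -0.01 (adjusted p = 0.898). FOXA2 and SOX17 exceeded the limit on 0 of 8 arrays labelled ICM.

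The sum of 10 trophoblast markers moved the other way, from 127174 to 136199 labelled ICM and from 63666 to 70692 labelled TE, with 9 of 10 above the limit. The sum of 8 markers of blood and endometrium, tissues of the mother that a flush could carry, ranged from 2271 to 6566 and from 2136 to 5723, and 1 of the 8 exceeded the limit on all channels. That marker was PTPRC, with a mean log2 intensity of 10.54 labelled ICM and 10.36 labelled TE. Its log2 ratio was 0.18 (adjusted p = 0.517). Of 20 heat shock and stress genes limma called 0, against 1.91% of all named genes lower and 3.35% higher. With the adjusted p allowed up to 0.05, 4 of these 20 passed as lower, against 6.84%, and at an unadjusted p under 0.05 there were 8 lower and 0 higher, against 14.4% and 15.6%. Their sum ranged from 158151 to 177681 labelled ICM and from 179275 to 208066 labelled TE. CHAC1, a target of ATF4, had -0.20 (adjusted p = 0.0315), negative on 4 of 8 arrays only, and DDIT4, an inhibitor of mTOR, had -0.63 (adjusted p = 0.0376). The part of these markers in the ratios of the immediate early genes was not tested.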

How the data were processed

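RNA from 4 pools each of bovine ICM and TE was amplified by in vitro transcription, labelled with Cy3 and Cy5 and hybridised on 8 arrays. The authors deposited the scanner output of every array, with raw foreground and local background intensity in both channels. A second deposited table gives normalized log2 ratios and served as an alternative. Its columns correlated with the background-subtracted log2 ratio of Cy5 over Cy3 (r from 0.522 to 0.791 across probes), their medians were -0.0257 to 0.00451, and its exact scale and centring are not given in the sources used here. The submitters' processing notes name limma. Other tables of the study's supplements, which hold its own fold changes, were not used.

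Spots flagged as ignored (at most 47 an array) were dropped, and 1426 control spots had weight 0. Intensities were corrected by normexp with an offset of 50, which shrinks the fold of dim probes, then normalized by loess within and Aquantile between arrays. The dye labels set the direction of each ratio (ICM-labelled to TE-labelled channel), and ratios were averaged over the 2 arrays of a replicate number and left empty where either was missing. R 4.3.3 and limma 3.58.1 gave the test of the 4 means against 0, and p-values were adjusted over 43794 probes. Percentages of all named genes count 15229 genes, each by its probe of highest mean intensity, or the 15175 with all values where pools were compared. The number of arrays limits the precision.

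Symbols come from the annotation of the platform, which names 21790 probes and leaves 22004 unnamed, and RefSeq synonyms (ARS-UCD2.0) were used for list members missing under their symbol. No coordinates are given. The limit of 2 SD over the negative controls was set after seeing the data. The 10 members and the lists were chosen with earlier results of these data known. Genes named from a list are among the 4 of smallest p in each direction, or the 2 of smallest p where nothing in it was called. PTPRC was named apart from this rule, for its signal, and so were GATA4, FOXA2 and SOX17, to give all measured hypoblast markers.

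Replicate numbers come from the sample titles. The methods give each pool 1 replicate in a dye-swap design but do not state which arrays share a pool. The pairing was taken from the numbers in the titles and then compared with the data (all same-numbered arrays correlated positively). Deviations of same-numbered arrays correlated at 0.839, 0.656, 0.553 and 0.555 across probes, and those of different numbers at -0.548 to 0.158. Alternatives changed the background correction, the normalization, the probe of a gene, the threshold, the arrays used and the block. The scripts were tested on simulated data.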

Additional observations from a re-analysis of the deposited data

Results flagged for a closer look

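The members' values gave 36 sets of 4 that were examined for a value apart from the others by Dixon's test, and chance flags about 1 in 20 such sets. EGR1 had a normalized log2 intensity of 7.68 in pool 1 labelled ICM, against 8.14 to 8.20 in pools 2 to 4, a gap of 0.888 of the range. Its raw signals in that pool were 126 and 152, at background limits of 123 and 161. The dim second probe of IER2 had a log2 ratio of 0.38 in pool pair 4, against -0.05 to -0.02 in the others, a gap of 0.930 of the range.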

How the results depend on the processing

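Of 170 values of single members under other processing, 128 kept their direction and their side of the threshold, 22 kept the direction and lost the call, 19 kept it and gained the call, and 1 turned, IER2 by its probe of lowest intensity (log2 ratio 0.066). The count of members called lower, 5 of 10, became 8 with plain background subtraction, 9 in the deposited log ratios, 9 at an adjusted p of 0.05, 0 with median centring, and 0 to 4 when 1 pool pair was left out. With the replicate block it was 9, with or without a dye term. The probes called lower over the whole array changed too. They numbered 591 by the main values, 1014 with plain subtraction, 1991 in the deposited log ratios, 2270 at 0.05 and 1 with median centring. Without pair 1 there were 337, and without pair 2, 3 or 4 there were 0. With the replicate block there were 2555, and 2097 with a dye term added. The block correlation was 0.0357 without the dye term, so that fit treats the arrays almost as 8 replicates, and 0.438 with it. Among the 49 measured immediate early and AP-1 genes besides the members, 2 were called lower, against 1.91% of all named genes. That count became 11 with plain subtraction, 5 with an offset of 16, 5 with no correction, 0 with median centring, 23 in the deposited ratios, 25 with the replicate block, 20 with the block and a dye term, 6 on the arrays with the ICM in Cy5, 14 after a filter on dim probes (42 genes tested), 17 at 0.05, 0 by the probe of lowest intensity, 5 by the mean of a gene's probes, and 0 to 7 when 1 pool pair was left out. The probes called lower over the whole array numbered 678 with an offset of 16, 872 with no correction and 904 with the ICM in Cy5. After the filter on dim probes there were 1072 of 25264 probes. By the mean of a gene's probes 355 genes were called lower. None of the 49 was higher, against 3.35% of all named genes, but 1 was on the arrays with the TE in Cy5, where 761 probes were called higher. The causes of these changes were not tested. Normalization between arrays left the log ratios as they were. Signal over background limits JUN, JUNB and EGR1.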

Other observations

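Several immediate early and stress genes outside the 10 had larger ratios than most members without being called, and they were picked here after their values were seen. PLK2, a polo-like kinase induced early after stimulation, had log2 ratios of -4.17, -2.80, -2.34 and -2.54 in pool pairs 1 to 4, a mean of -2.96 ± 0.33 (SE, n = 4, adjusted p = 0.0117). HMOX1, the stress-induced heme oxygenase, had -2.67, -1.58, -2.05 and -0.74, a mean of -1.76 ± 0.33 (adjusted p = 0.0401). HSPA1A, the inducible HSP70, had -4.51, -3.25, -0.83 and -0.62, a mean of -2.30 ± 0.76 (adjusted p = 0.166), so that pairs 1 and 2 stood far from pairs 3 and 4. GADD45B had -1.71 (adjusted p = 0.0168), KLF4 -1.41 (adjusted p = 0.0201) and NR4A1 -1.41 (adjusted p = 0.0863).

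The other immediate early genes also varied between pool pairs. Pool pair 1 held the most negative ratio for 25 of the 37 (67.6%), against 3 of the 10 members (30.0%) and 24.9% of all named genes. The median of the 37 was -0.68 in pair 1 and -0.41, -0.31 and -0.32 in pairs 2 to 4. No test of this difference was run.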
